A study of Rattus norvegicus with 12 samples.

Results

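The small leucine-rich proteoglycans are a family of secreted matrix proteins, and 7 of their genes were followed here through nitrosamine carcinogenesis of the rat esophagus: Ogn (osteoglycin), Dcn (decorin), Lum (lumican), Bgn (biglycan), Fmod (fibromodulin), Prelp and Aspn (asporin). Members were chosen by symbol: every probe set to which the platform annotation gives one of these symbols was taken. All 7 genes were measured, by 11 probe sets, among 14217 genes and 31042 probe sets on the array. Rats received subcutaneous injections of 0.2 ml, 3 times per week for 5 weeks, of N-nitrosomethylbenzylamine (NMBA) at 0.3 mg per kg body weight or of its solvent, dimethyl sulfoxide in water. This nitrosamine is an established carcinogen of the rat esophagus, where it gives rise to squamous tumors. The 4 groups of 3 arrays were a normal control given solvent, and NMBA rats at week 6 (early stage), week 15 (middle stage) and week 29 (late stage). The labels name no strain, age or sex, and no week for the controls. They do not tie arrays to separate rats, so the p-values rest on the spread among these arrays, part of which may be technical.

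A small leucine-rich proteoglycan has a core of leucine-rich repeats that curves around collagen, and most members carry chains of chondroitin, dermatan or keratan sulfate. By lying on the surface of collagen fibrils they set how thick the fibrils grow and how they are spaced, and decorin, biglycan, asporin and fibromodulin also bind growth factors of the TGF-beta family. In the esophagus they are known as products of fibroblasts and other stromal cells below the epithelium, and not of the squamous keratinocytes.

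The genes lie partly in groups of neighbours. In the RefSeq gene table of the rat assembly GRCr8, Ogn, Omd and Aspn follow each other with Ecm2 close by, Dcn and Lum are adjacent, and Optc, Prelp and Fmod follow each other, while Bgn has no family member as a neighbour. RefSeq gave an upstream window for 4 of the 7 genes. The 250 bases before the transcription start are shown for Ogn and Aspn, which lie on either side of Omd and fell together. They are also shown for Lum, which fell too, and for Fmod, which did not pass the test. The windows are read on the minus strand at chr17:15258996-15259245 (Ogn) and chr17:15310470-15310719 (Aspn), and on the plus strand at chr7:34245456-34245705 (Lum) and chr13:48045317-48045566 (Fmod), all on GRCr8. Each is written from 5′ to 3′ towards its gene, with motif matches in capitals.
Ogn: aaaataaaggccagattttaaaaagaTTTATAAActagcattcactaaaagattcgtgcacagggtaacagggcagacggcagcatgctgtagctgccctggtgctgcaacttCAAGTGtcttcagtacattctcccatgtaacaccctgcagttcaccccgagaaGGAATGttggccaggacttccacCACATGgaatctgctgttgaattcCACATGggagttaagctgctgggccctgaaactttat
Aspn: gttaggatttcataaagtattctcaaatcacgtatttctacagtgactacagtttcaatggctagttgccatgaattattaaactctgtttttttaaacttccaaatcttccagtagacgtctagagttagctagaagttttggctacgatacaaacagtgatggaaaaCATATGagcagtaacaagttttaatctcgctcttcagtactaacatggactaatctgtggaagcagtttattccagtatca
Lum: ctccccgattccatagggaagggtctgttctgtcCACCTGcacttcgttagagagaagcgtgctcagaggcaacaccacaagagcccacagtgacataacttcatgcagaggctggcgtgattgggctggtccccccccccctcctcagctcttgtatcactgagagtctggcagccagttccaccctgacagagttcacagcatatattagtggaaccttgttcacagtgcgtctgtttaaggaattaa
Fmod: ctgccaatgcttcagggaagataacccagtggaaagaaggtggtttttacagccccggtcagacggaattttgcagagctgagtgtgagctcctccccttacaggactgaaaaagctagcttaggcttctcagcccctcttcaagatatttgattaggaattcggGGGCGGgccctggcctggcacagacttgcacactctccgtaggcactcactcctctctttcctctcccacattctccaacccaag
Motifs were searched on both strands. The TATA box was spelled TATAAA. The GC box, a Sp1 type site, was spelled GGGCGG. The AP-1 site was spelled TGANTCA. The E box was spelled CANNTG. The TEAD site was spelled GGAATG. In the Ogn window 2 TATA box matches overlap each other. Of 33469 rat windows of this length, 12.9% hold the TATA box letters, 30.5% the GC box, 6.34% the AP-1 site, 65.5% the E box and 12.1% the TEAD site. The Ogn window holds 3 E box matches and 1 TEAD match, those of Aspn and Lum hold 1 E box match each, and that of Fmod holds 1 GC box. The AP-1 letters were in none of the 4 windows. No motif of these 5 was common to the 4 windows, which says only that these letters are not in these stretches.

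The samples were checked against markers before the members were read. The squamous keratin Krt5 lay between 12.37 and 13.70 on the log2 scale, and the skeletal muscle actin Acta1 between 14.03 and 14.71, so the samples held striated muscle RNA, although the protocol has the submucosa and muscle stripped off before freezing. A score, the mean log2 signal of a marker list, was used for each cell type. For skeletal muscle the controls had a score of 11.84 ± 0.27 (SD, n = 3). Week 6 had 12.36 ± 0.16, week 15 had 10.79 ± 0.75 and week 29 had 12.07 ± 0.11. The smooth muscle score stood apart in control replicate 3 (10.61) and week 6 replicate 3 (10.66), against 9.32 to 10.03 in the other 10 arrays. The fibroblast score, from markers that are neither members nor collagens, was 8.72 ± 0.30 in controls and 8.06 ± 0.32 at week 15, and it returned to 8.62 ± 0.24 by week 29 (8.70 ± 0.13 at week 6). In such bulk samples fewer cells of a type and less RNA per cell cannot be told apart.

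At week 15, 4 of the 7 genes were lower than in controls and 0 were higher. They were Ogn, Aspn, Lum and Dcn, which fell to between 0.30 and 0.54 of the control signal, and the 3 arrays of week 15 lay below all 3 controls for each of them. Over all probe sets tested, 6.21% were called lower, 1.7% higher, and 13.1% lay below all controls without overlap. The median change of the 7 genes was -1.07 on the log2 scale, beside 0.06 for all probe sets. At week 29 the same 4 genes overlapped the controls again.

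Ogn, which encodes osteoglycin, a member without attached chondroitin or dermatan chains, read 9.46, 8.97 and 9.66 in controls and 9.23, 9.09 and 9.50 at week 6. It read 7.69, 7.59 and 7.65 at week 15 and 9.11, 9.71 and 9.31 at week 29. The week 15 arrays were the 3 lowest and lay close together, and the other 3 groups overlapped. Against control Ogn fell by 1.72 ± 0.18 (SE, n = 3 per group, limma adjusted p = 0.00221), or 3.29-fold. The other 3 Ogn probe sets were at -1.27, -1.77 and -1.74, each called, and the 4 probe sets of this gene share a target and are not replicates.

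Aspn encodes asporin, a collagen-binding member that carries a run of aspartates in place of a sugar chain. Its signal was 9.18, 8.98 and 8.95 in controls, 9.12, 9.25 and 9.23 at week 6, 7.43, 7.91 and 7.36 at week 15 and 9.01, 9.42 and 8.83 at week 29. As for Ogn, the week 15 arrays were the 3 lowest of the 12. Aspn fell by 1.47 ± 0.16 at week 15 (SE, n = 3 per group, limma adjusted p = 0.00221), or 2.77-fold. Its second probe set fell by 1.36 at week 15. That probe set read 8.63, 8.65 and 8.56 in controls and 8.85, 9.15 and 9.44 at week 6, without overlap (as were 18.7% of all probe sets, in that direction), but the difference of 0.53 did not pass (adjusted p = 0.14), and the brighter probe set differed by 0.16 with overlap.

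**Figure D1:**
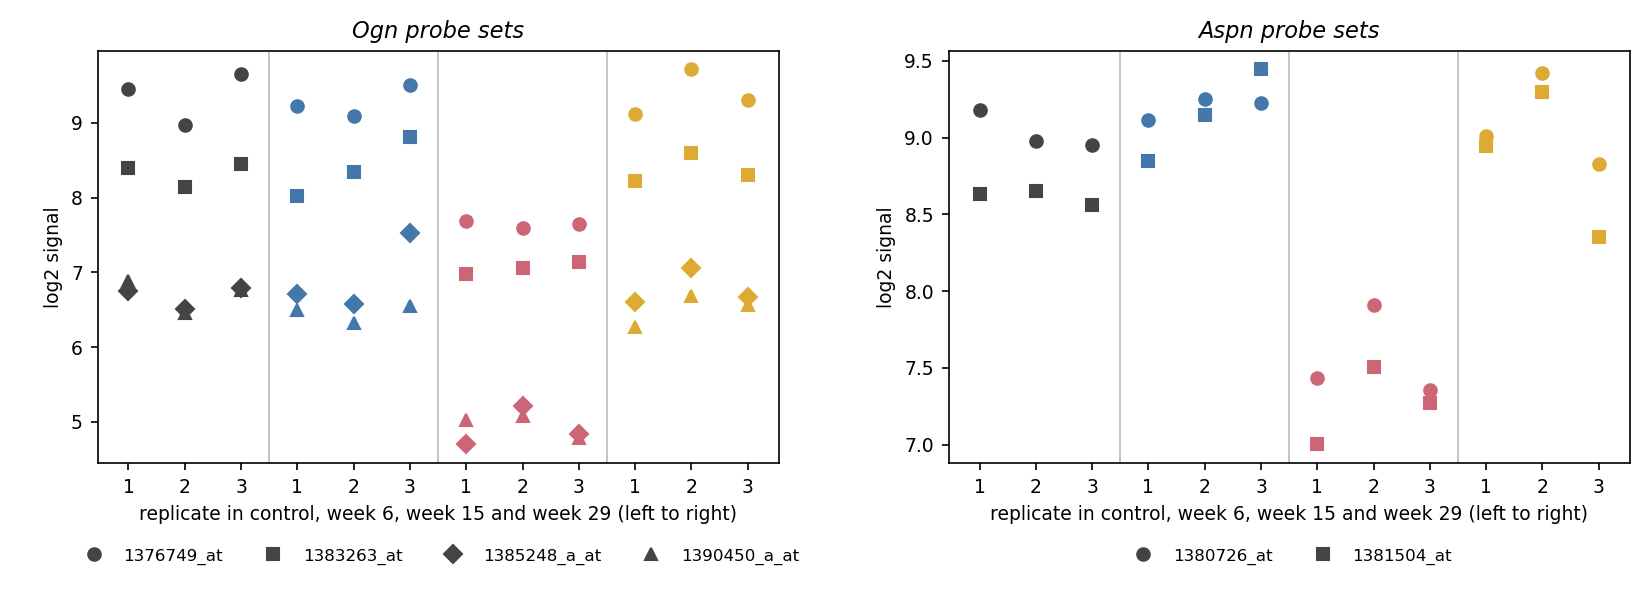
Log2 signal (y axis) of the 4 Ogn and 2 Aspn probe sets in each of the 12 arrays, ordered by group and replicate along the x axis, 1 symbol per probe set and 1 color per group. In every probe set the 3 week 15 arrays are the lowest of the 12.

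Lum encodes lumican, a keratan sulfate member that controls collagen spacing. It read 11.90, 11.43 and 11.64 in controls, 11.59, 11.70 and 11.84 at week 6, 10.66, 10.61 and 10.10 at week 15 and 11.61, 11.96 and 11.49 at week 29. Only the week 15 arrays left the range of the other groups, with replicate 3 the lowest. Lum fell by 1.20 ± 0.17 (SE, n = 3 per group, limma adjusted p = 0.00422), or 2.30-fold.

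Dcn encodes decorin, the chondroitin or dermatan sulfate member that decorates type I collagen fibrils. Its signal was 12.85, 12.46 and 12.79 in controls, 12.61, 12.61 and 12.76 at week 6, 11.91, 11.87 and 11.64 at week 15 and 12.58, 13.00 and 12.55 at week 29. The week 15 arrays were again the 3 lowest, and the other 3 groups overlapped. Dcn fell by 0.89 ± 0.14 (SE, n = 3 per group, limma adjusted p = 0.00611), or 1.86-fold, and was not counted when a 2-fold change was also required.

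**Figure D2:**
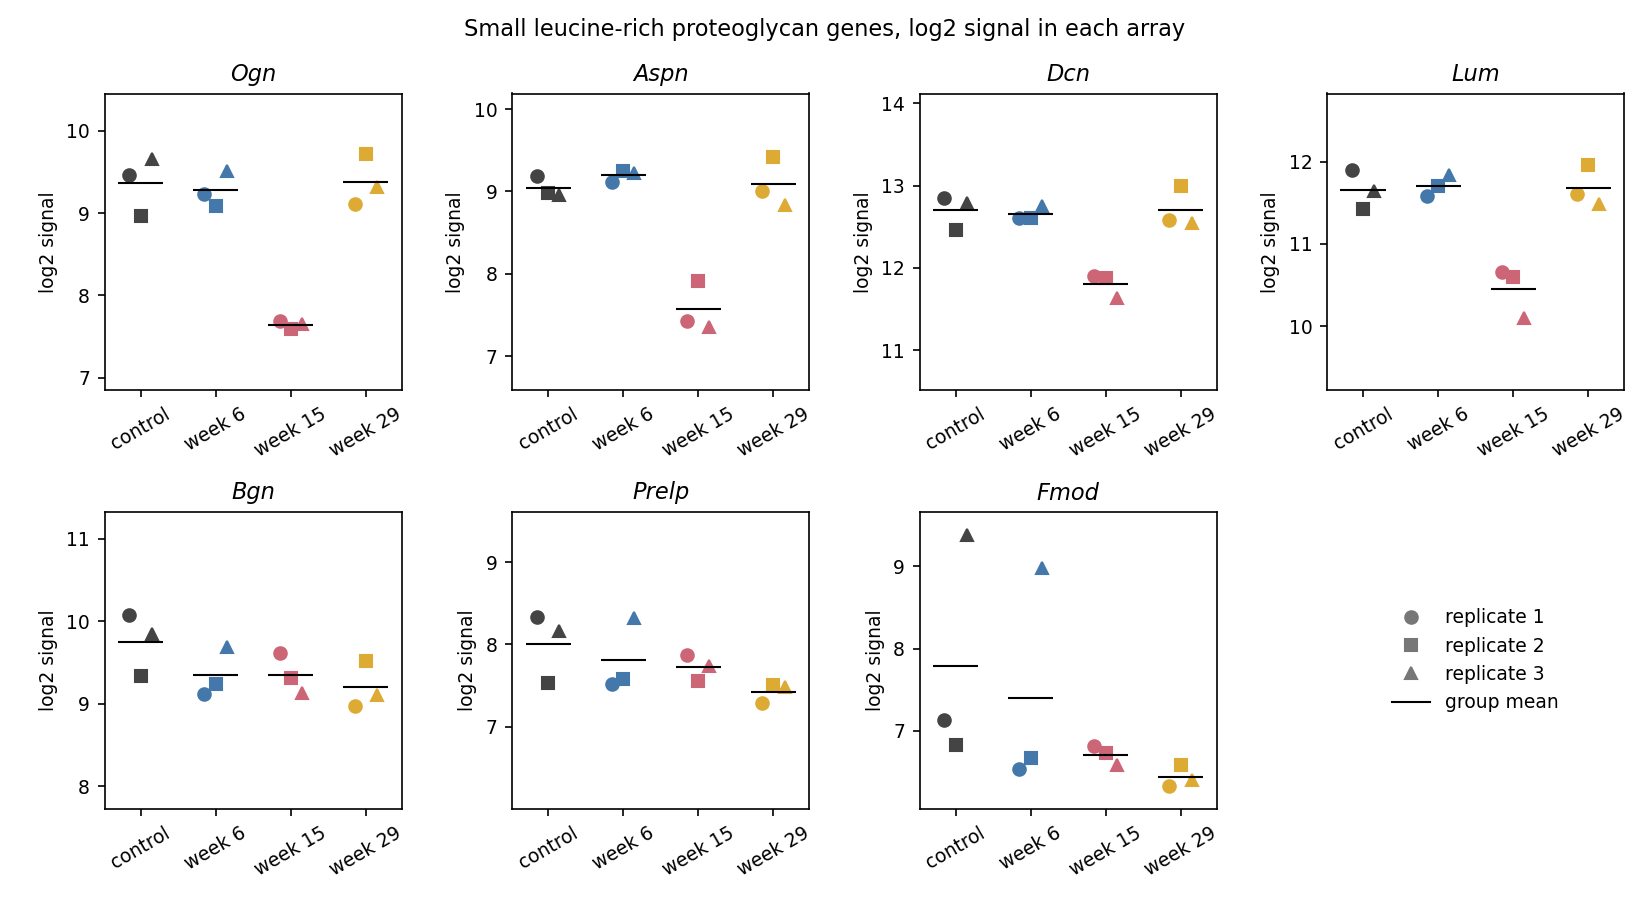
Log2 signal (y axis, each panel spanning the same height) of the 7 genes in each array by group (x axis), with symbols for replicates 1, 2 and 3 and a bar at the group mean. Ogn, Aspn, Dcn and Lum drop at week 15 and return at week 29, Bgn and Prelp overlap between most groups, and Fmod is high in 2 arrays, control replicate 3 (9.38) and week 6 replicate 3 (8.98).

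The other 3 genes did not pass at week 15. Bgn encodes biglycan, the closest relative of decorin. It read 10.08, 9.34 and 9.84 in controls, 9.12, 9.24 and 9.68 at week 6, 9.62, 9.31 and 9.12 at week 15 and 8.97, 9.52 and 9.11 at week 29. The groups overlapped, with the 2 highest values in controls. At week 15 Bgn was at -0.40 against control, with a 95% confidence interval from -0.87 to 0.06 (limma adjusted p = 0.26), and it did not differ in mean from week 6 (0.00, interval -0.46 to 0.46). Whether Bgn and Dcn differ in their change from control was not tested.

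Prelp encodes a member of basement membranes and connective tissue. It read 8.33, 7.54 and 8.16 in controls, 7.52, 7.58 and 8.32 at week 6, 7.87, 7.55 and 7.74 at week 15 and 7.29, 7.51 and 7.49 at week 29. The 3 week 29 values were below those of all other arrays, by a narrow margin, where 15.7% of all probe sets lay below all controls without overlap and 6.08% below all week 6 arrays. At week 29 Prelp was at -0.58 ± 0.22 (SE, n = 3 per group, limma adjusted p = 0.0955).

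Fmod, which encodes fibromodulin, a keratan sulfate member that binds collagen and helps its crosslinking, read 7.14, 6.83 and 9.38 in controls and 6.54, 6.68 and 8.98 at week 6. It read 6.82, 6.74 and 6.59 at week 15 and 6.33, 6.59 and 6.40 at week 29. Control replicate 3 and week 6 replicate 3 stood over 1 log2 unit above every other array, and both had the highest smooth muscle scores. Of that list Myh11, Acta2, Tagln, Cnn1, Actg2 and Myocd were highest in these 2 arrays, and Smtn, Lmod1 and Synpo2 were not. All week 15 and week 29 values lay below every control, beside 13.1% and 15.7% of all probe sets, yet Fmod was at -1.07 (interval -2.49 to 0.35) and -1.34 (interval -2.76 to 0.08) and passed in neither. Without these 2 arrays the differences were smaller, -0.27 and -0.54. Their limma adjusted p was 0.274 and 0.0595, against 0.326 and 0.175 with all arrays, so neither passed. With the smooth muscle score as a covariate the differences were 0.09 and 0.07. The part of smooth muscle content in the Fmod values was not tested beyond these values.

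**Figure D3:**
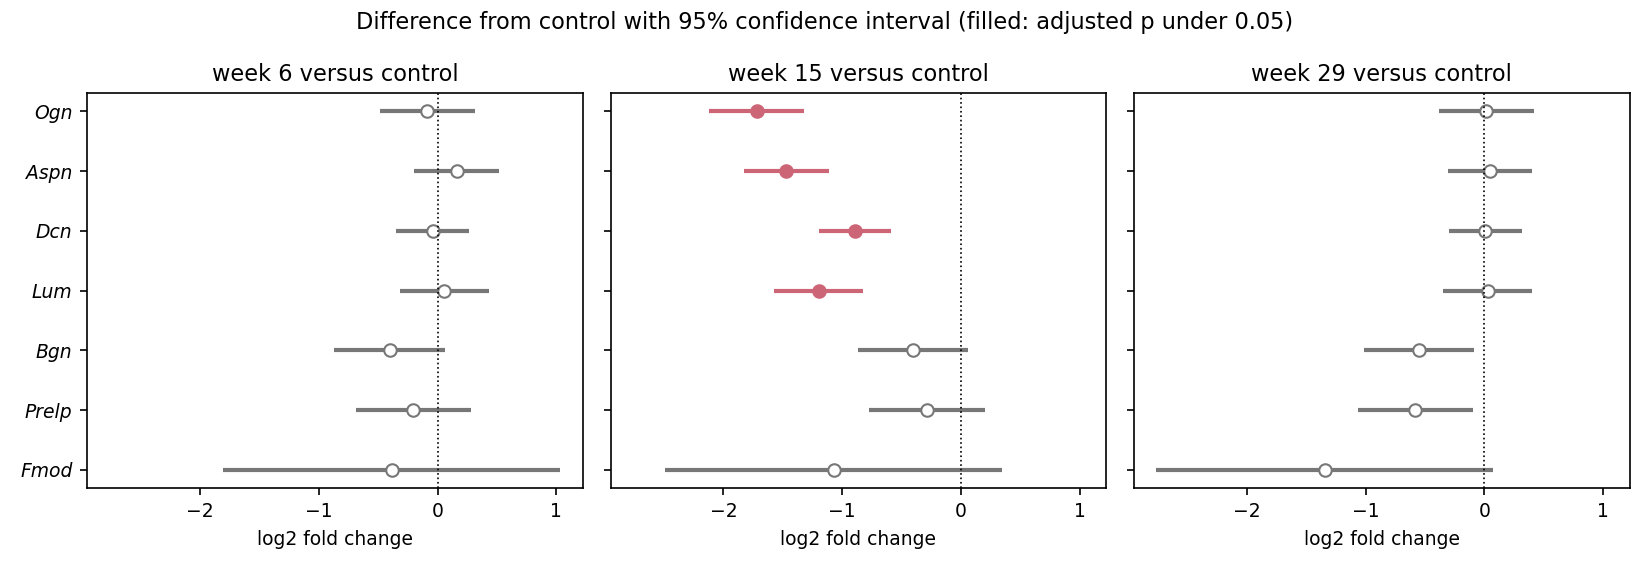
Log2 fold change from control (x axis) of the 7 genes at weeks 6, 15 and 29 with 95% confidence intervals, filled where the limma adjusted p was under 0.05. Ogn, Aspn, Dcn and Lum are filled at week 15, and no gene is filled at week 6 or week 29.

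At week 6, 0 of the 7 genes were called by limma (0 also at an unadjusted p under 0.05), beside 7.54% of all probe sets. The changes ran from -0.40 for Bgn to 0.16 for Aspn, with a median of -0.09. At week 29, 0 of 7 were called (2 at an unadjusted p under 0.05, Bgn and Prelp), beside 15.2% of all probe sets. For the 4 genes that were low at week 15 the week 29 changes were 0.02 for Ogn, 0.05 for Aspn, 0.03 for Lum and 0.01 for Dcn, with intervals within -0.38 and 0.42. Bgn was at -0.55 ± 0.21 (SE, n = 3 per group, limma adjusted p = 0.0965) and, like Prelp, passed when control replicate 2 was left out (-0.76 and -0.82, adjusted p = 0.0339 and 0.027). Prelp also passed, at 0.049, without week 6 replicate 3.

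Between NMBA weeks, which share the week 15 arrays with each other and with the comparison above, the same 4 genes moved. From week 6 to week 15, 4 of 7 fell, beside 17.4% of all probe sets: the log2 change was -1.63 for Ogn, -1.63 for Aspn, -1.25 for Lum and -0.85 for Dcn (limma adjusted p = 9.23e-05, 5.43e-05, 0.000236 and 0.000678). From week 15 to week 29, 4 of 7 rose, beside 17.1% of all probe sets: Ogn by 1.74, Aspn by 1.52, Lum by 1.23 and Dcn by 0.90 (limma adjusted p = 6.46e-05, 6.94e-05, 0.000234 and 0.000427). These shares show that many genes moved between these weeks. With the skeletal muscle score as a covariate 0 of the 4 falls and 2 of the 4 rises, those of Ogn and Aspn, were called by limma. Between weeks 6 and 29, 0 of 7 genes and 0% of all probe sets were called (0 of 7 and 3005 probe sets at an unadjusted p under 0.05), with changes from -0.96 for Fmod to 0.10 for Ogn.

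The week 15 falls moved with marker scores of several cell types. Of 17 fibroblast markers, 7 fell at week 15 and 0 rose, with a median of -0.63, beside 6.21% and 1.7% of all probe sets. Among the 7 were Mfap4 (-1.42), the growth factor receptor gene Pdgfra (-1.16), Fbn1 (-1.09) and Mfap5 (-1.13). The fibroblast receptor genes Pdgfrb (0.23) and Thy1 (-0.40) did not pass. In week 15 replicates 1, 2 and 3 the fibroblast score was 8.35, 8.11 and 7.72. Lum (10.66, 10.61 and 10.10), Dcn (11.91, 11.87 and 11.64) and Bgn (9.62, 9.31 and 9.12) had the same order over these 3 arrays, and Ogn (7.69, 7.59 and 7.65) and Aspn (7.43, 7.91 and 7.36) did not. With the fibroblast score as a covariate Ogn was at -1.27, Aspn at -1.17, Lum at -0.62 and Dcn at -0.46 against control, and 0 of 7 genes were called by limma (4 at an unadjusted p under 0.05, adjusted p from 0.135 to 0.287). In that fit only 0.00966% of all probe sets were called. Against week 6 the same fit still called the 4 genes lower (Ogn -1.19, Aspn -1.34, Lum -0.69, Dcn -0.43) and called Bgn higher by 0.70 (adjusted p = 0.0154), beside 14.2% of all probe sets in either direction. From week 15 to week 29 it called the 4 genes higher and Bgn lower (-0.77, adjusted p = 0.00624), beside 18.6% of all probe sets.

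The skeletal muscle score was below every control in each week 15 array (9.99 to 11.46 against 11.55 to 12.09). With this score as a covariate Ogn was at -1.65, Aspn at -1.21, Lum at -0.92 and Dcn at -0.74 at week 15, and 0 of 7 genes were called by limma (4 at an unadjusted p under 0.05, adjusted p from 0.154 to 0.221), beside 0% of all probe sets (4165 at an unadjusted p under 0.05). From week 6 to week 15 the same fit called 0 of 7 genes by limma (4 at an unadjusted p under 0.05), with Ogn at -1.53, Aspn at -1.24, Lum at -0.84 and Dcn at -0.62 (adjusted p from 0.0869 to 0.242) and 0.0226% of all probe sets called. From week 15 to week 29 it called Ogn (1.65) and Aspn (1.20) higher, and Lum (0.89, adjusted p = 0.0925) and Dcn (0.71, adjusted p = 0.112) did not pass, beside 3.35% of all probe sets. Of 18 skeletal muscle markers 3 fell at week 15 and 0 rose (14 at an unadjusted p under 0.05), with a median of -0.81, beside 6.21% and 1.7% of all probe sets. From week 6 to week 15, 16 of them fell, and from week 15 to week 29, 13 rose. In these 2 comparisons 37.8% and 35.4% of all probe sets were called in either direction. The squamous score was 11.39 to 11.89 at week 15 and 11.14 to 11.45 in controls, and 0 of its 15 markers were called by limma (3 at an unadjusted p under 0.05). The score was 10.31 to 10.66 at week 6 and 9.91 to 10.60 at week 29. From week 6 to week 15, 14 of the 15 markers rose (median 1.16), and from week 15 to week 29, 14 fell (median -1.37). Against control 5 were lower at week 6 and 12 at week 29, beside 2.44% and 7.44% of all probe sets. The part of muscle and epithelial content in the falls was not tested beyond these values. The difference between 3′ and 5′ GAPDH control probe sets is larger in degraded RNA. It was 0.40 ± 0.19 (SD, n = 3) at week 15 and 0.40 ± 0.16 in controls. It was 0.108 ± 0.041 at week 6 and 0.171 ± 0.045 at week 29, without overlap with week 15. The margin to week 29 was narrow, with a highest value of 0.215 there and a lowest of 0.221 at week 15. With the GAPDH difference as a covariate the 4 genes were called lower against control (limma adjusted p from 0.00218 to 0.00496), beside 8.41% of all probe sets in either direction. From week 6 to week 15 they were also called lower (0.00229 to 0.00579), beside 15.6%. From week 15 to week 29 they were called higher (0.000665 to 0.00203), beside 22.3%. Against control this fit called 0.0258% of all probe sets at week 6 and 0.425% at week 29.

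**Figure D4:**
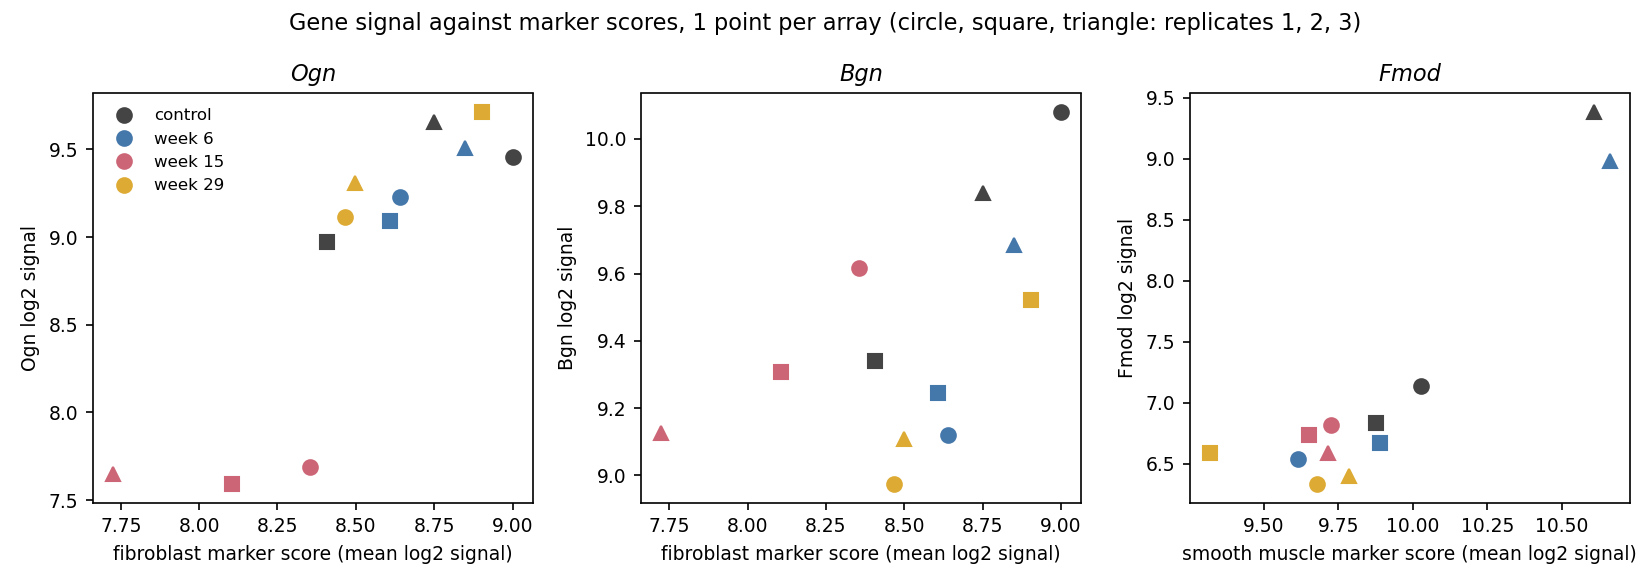
Log2 signal of Ogn and Bgn against the fibroblast score, and of Fmod against the smooth muscle score, 1 point per array with color by group and symbol by replicate. Ogn at week 15 lies between 7.59 and 7.69 at scores from 7.72 to 8.35, Bgn at week 15 lies within the range of the other groups, and the 2 arrays with Fmod at 8.98 and 9.38 have smooth muscle scores of 10.66 and 10.61.

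The members also differed in the genes whose pattern was most like theirs, given as Pearson r over the 12 arrays, which share the grouping, and as a description only. For the mean of the 7 genes the closest were Lama4 (0.987), Cd48 (0.973), Scrn1 (0.972), Col6a3 (0.971) and Lhfpl6 (0.960), followed by Olfml1, Col15a1, Fstl1, Col5a1 and Dpysl2 (0.948 to 0.956). Ogn was closest to Sdc2, a syndecan (0.979), Dcn to Reck, a protease inhibitor (0.988), Lum to Fndc1 (0.983) and Aspn to the nearby family gene Ecm2 (0.979). Bgn was closest to Col4a1, a basement membrane collagen (0.924), Prelp to Cald1, the actin-binding caldesmon (0.942), and Fmod to Sorbs2 (0.962). Among themselves, Ogn, Aspn, Lum and Dcn had r of 0.940 to 0.986 with each other, and the closest member of Bgn and of Fmod was Prelp (0.873 and 0.771).

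Of 11 other family genes listed, 8 were measured, 2 fell at week 15 and 0 rose, with a median of -0.07, beside 6.21% and 1.7% of all probe sets. Ecm2 fell by 1.40 ± 0.18 (SE, n = 3 per group, limma adjusted p = 0.00275), from 8.43, 8.11 and 8.34 in controls to 6.78, 7.08 and 6.83. Omd, which encodes osteomodulin, fell by 1.24 ± 0.20 (SE, n = 3 per group, adjusted p = 0.00767), from 6.47, 6.50 and 6.61 to 5.53, 5.45 and 4.88. Both rose again from week 15 to week 29, by 1.61 and 1.41. Tsku, which encodes the secreted protein tsukushi, read 8.21, 7.72 and 7.83 in controls and 8.42, 8.50 and 8.94 at week 15. Against control its difference of 0.70 did not pass (limma adjusted p = 0.066). Tsku rose by 1.01 from week 6 to week 15 (adjusted p = 0.00317) and fell by 1.32 to week 29 (adjusted p = 0.000538). In these 2 comparisons 37.8% and 35.4% of all probe sets were called in either direction.

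Collagens are the main partners of these proteins. Of 12 listed, 9 fell at week 15 and 0 rose (median -1.10), beside 6.21% and 1.7% of all probe sets. Those of lowest adjusted p were Col6a1 (-1.07), Col5a2 (-1.16), Col3a1 (-1.32) and Col6a3 (-1.27). The largest fall in the list was that of Col1a2 (-1.42). At week 29, 4 of 12 were still lower, Col5a2 (-0.70), Col6a1 (-0.59), Col3a1 (-0.68) and Col1a2 (-0.84), beside 7.44% of all probe sets. At that week 0 of the 7 proteoglycan genes were called by limma. The difference between the lists was not tested. At week 6, 0 of the 12 collagens were called by limma (4 at an unadjusted p under 0.05), beside 7.54% of all probe sets.

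**Figure D5:**
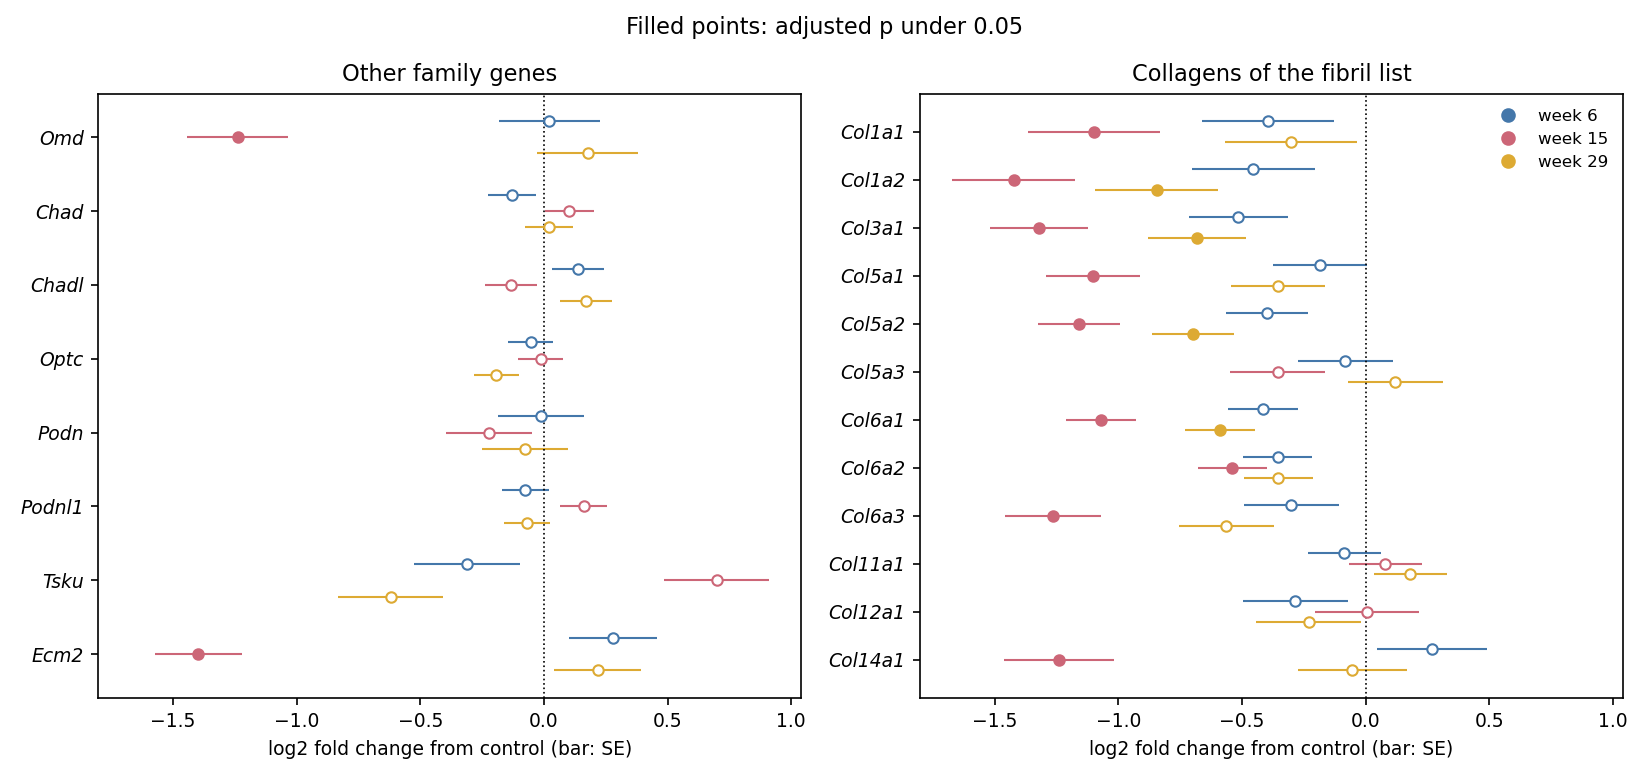
Log2 fold change from control with SE (x axis) of 8 other family genes and 12 collagens (y axis) at weeks 6, 15 and 29, filled where the limma adjusted p was under 0.05. Omd and Ecm2 are the only filled family genes, at week 15, and 9 collagens are filled at week 15 and 4 at week 29.

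Of 23 measured genes that build the sugar chains, 4 fell at week 15 and 0 rose (median 0.00), beside 6.21% and 1.7% of all probe sets. They were Csgalnact2 (-1.10), Csgalnact1 (-0.49), Dsel (-0.50) and Chsy1 (-0.49), which act in chondroitin and dermatan sulfate synthesis. Csgalnact2 was 0.70 higher at week 6 and 0.64 higher at week 29, and Chst2, a keratan sulfate sulfotransferase, was 1.13 and 1.09 higher, each called. At week 6, 2 rose and 1 fell in this list, and at week 29, 3 rose and 2 fell. In either direction 7.54% and 15.2% of all probe sets were called at these weeks. Of 17 TGF-beta and BMP genes, 3 fell at week 15 and 0 rose (median -0.17): the ligands Tgfb2 (-0.71) and Tgfb3 (-0.94) and the signal transducer Smad3 (-0.72). At week 29 Smad3 was 0.58 higher, and Smad7, Ltbp3 and Ltbp1 were lower (-0.40, -0.41 and -0.57), again beside 15.2% of all probe sets.

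Of 9 measured receptors of soluble proteoglycans, 0 were called by limma at week 15 (2 at an unadjusted p under 0.05, median 0.05), and Cd44, Igf1r and Cd14 were lower at week 29 (-0.62, -0.38 and -0.48). Of 18 other proteoglycans, 6 fell at week 15 and 0 rose (median -0.14), among them the cell-surface genes Sdc2 (-1.09), Gpc4 (-0.81) and Gpc6 (-0.74) and Hspg2 (-0.54), the basement membrane proteoglycan perlecan. At week 29, 2 of these 18 rose, Gpc4 (0.73) and Gpc1 (0.52), and 2 fell, Sdc1 (-1.07) and Srgn (-0.48). Of 12 proteases and inhibitors, 2 fell at week 15 and 0 rose (median -0.19), the protease inhibitor Timp3 (-0.70) and the gelatinase Mmp2 (-1.18). Beside the counts of these 3 lists, 6.21% of all probe sets fell and 1.7% rose at week 15. At week 29, 15.2% were called in either direction and 7.44% were lower.

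Markers of other cell types were read beside these lists. At week 15, 3 of 9 smooth muscle, 3 of 10 endothelial, 2 of 6 Schwann cell and 1 of 5 adipocyte markers fell and none rose. Over all probe sets 6.21% fell and 1.7% rose. By limma, 0 of 8 leukocyte and 0 of 4 tendon and fascia markers were called (1 and 2 at an unadjusted p under 0.05). The smooth muscle score was 9.65 to 9.73 at week 15, below every control (9.88 to 10.61). Of its markers Smtn, Lmod1 and Synpo2 lay below every control, as did 13.1% of all probe sets. Myh11, Acta2, Tagln, Cnn1, Actg2 and Myocd overlapped controls. The endothelial score was 8.35 to 8.75 at week 15 and 8.68 to 8.99 in controls. The Schwann cell score was 6.88 to 7.33 against 7.56 to 7.88. Its markers S100b and Pmp22 lay below every control, and Mbp, Sox10, Ngfr and Mal overlapped controls. The leukocyte score was 7.15 to 7.67 against 7.29 to 7.91, and the adipocyte score 4.96 to 5.17 against 5.12 to 5.30. The tendon and fascia score was 5.58 to 6.47 against 6.30 to 6.47. The part of these cell types in the member values was not tested.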

How the data were processed

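RNA of 12 esophageal samples was hybridised to an Affymetrix rat array, 1 array per sample. The authors deposited 1 log2 signal per probe set and array, made with Affymetrix Expression Console according to the submitters' processing notes. These notes name neither method nor version. Values of 2.49 to 14.71 show the log scale, and array medians lay between 6.41 and 6.48. Without detection calls the background could not be judged, and 3 arrays per group bound the precision. Pairs of arrays had exactly the same deposited value for 7 to 47 probe sets.

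The 57 control probe sets among 31099 were dropped and the others tested without a filter. The platform annotation named 1 gene for 20826 probe sets, several for 436 and none for 9780, and the gene identifiers of all 11 member probe sets matched the reference table. The probe set with the highest mean stood for a gene. Values were used as deposited in limma 3.58.1 (R 4.3.3), in 1 fit of 4 groups with 8 residual degrees of freedom, two-sided, with Benjamini-Hochberg adjustment over 31042 probe sets and calls at an adjusted p under 0.05. The fit was tested on simulated data. Members, lists and tests were chosen with earlier results of these data known. Every member is named, with up to 4 called genes of each other list by lowest adjusted p; Pdgfrb, Thy1, Tsku and, at week 15, Col1a2 were named after their values were seen. Promoter windows are RefSeq's, on GRCr8.

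Alternatives were array median subtraction, quantile normalization, fits of 6 arrays, a minimum mean signal of 5, the replicate block, 3 covariates, a variance trend, a 2-fold minimum, probe set means and leaving out each array; leaving out 2 arrays of high smooth muscle score, leaving out week 15 and the smooth muscle score as a covariate were added after seeing the data.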

Additional observations from a re-analysis of the deposited data

Results flagged for a closer look

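The change from control differed between NMBA weeks for Ogn, Aspn, Lum and Dcn, by the limma test of the difference between weeks. From week 6 to week 15 the log2 fold change was -1.63 for Ogn, -0.85 for Dcn, -1.25 for Lum and -1.63 for Aspn. From week 15 to week 29 it was 1.74 for Ogn, 0.90 for Dcn, 1.23 for Lum and 1.52 for Aspn. Over all probe sets 17.4% were called lower in the former comparison and 17.1% higher in the latter. Both comparisons rest on the same 3 week 15 arrays. In those arrays the skeletal muscle, smooth muscle, fibroblast and Schwann cell scores also lay below every control. In the smooth muscle and Schwann cell lists only some markers lay below every control, and the others overlapped controls. The squamous score and the GAPDH difference of those arrays lay above every week 6 and week 29 array. For the GAPDH difference the margin to week 29 was narrow (0.221 against 0.215).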

How the results depend on the processing

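The 4 week 15 falls were called after array median subtraction, quantile normalization, in fits of 6 arrays, without dim probe sets, with the variance trend, with probe set means, with the GAPDH and smooth muscle covariates and without each of the 12 arrays in turn (4 to 4 genes, for week 15 against control, against week 6 and for week 29 against week 15). With the skeletal muscle score as a covariate the counts were 0, 0 and 2 genes (Ogn and Aspn), beside 0%, 0.0226% and 3.35% of all probe sets. With the fibroblast score they were 0, 5 and 5 for these comparisons, beside 0.00966%, 14.2% and 18.6%. The 5 included Bgn, which moved opposite to the 4 genes (0.70 and -0.77). That fit also called 1 gene, Bgn (-0.45, adjusted p = 0.027), at week 29 against control, beside 13.7% of all probe sets. Both scores differ between week 15 and the other groups, and the cause of the lost calls was not tested. Requiring a 2-fold change left 3 genes in each of the 3 comparisons, without Dcn, beside 1.7%, 7.1% and 8.12% of all probe sets in either direction. Leaving out each array gave 0 to 0 genes for week 6 against control and for week 29 against week 6, and 0 to 2 for week 29 against control.

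Over all probe sets, the share called depended on single arrays: 0.00322% to 11.1% at week 6, 2.84% to 9.85% at week 15 and 0.883% to 19.7% at week 29 against control when each array was left out, and 0.435% in the fit of 6 arrays at week 15. With the replicate block the counts of called members were 4 at week 15 against control, 4 against week 6, 4 for week 29 against week 15 and 0 otherwise. In this fit 7.83% of probe sets were called at week 15. Of 18 same-numbered pairs of arrays 8 correlated over 0.1, and 3 of 12 arrays correlated best with their own number. This showed no clear pairing by number, but with 3 arrays per group the check could miss one, and the labels state none. No called change reversed its sign under any setting run, while the sign of changes that did not pass often turned.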
